A study of Mus musculus with 16 samples.

Results

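Gene expression was compared between Psmb11-/- (KO) and wild-type (WT) cortical thymic epithelial cells (cTEC), the epithelial cells of the outer thymus, in 4 of the 16 RNA-seq libraries of a study of mouse thymic epithelium. There were 2 cTEC libraries per genotype, chosen by their labels. Both groups were thymus cells sorted, per the labels' protocols, as CD45-negative, EpCAM-positive, Ly51-positive and UEA1-negative, and every label gives the strain as C57BL/6-derived BAC. The KO label states a homozygous loss of Psmb11 and names no promoter or Cre. The labels conflict on age and animals, with 6 to 8 weeks and 11 thymi in the series description and 7 days and 14 mice in the extraction protocol. How many animals a library pools, and whether the 2 libraries of a genotype came from separate animals, is not stated, so a p-value here measures the spread between libraries, which may be technical. The other 12 libraries, of medullary epithelial cells with low or high MHC class II (mTEClo and mTEChi), were used to ask whether an effect in cTEC differed from that in the medullary cells.

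Proteasomes are barrel-shaped proteases that cut cell proteins into peptides, many of which are shown on MHC class I. Psmb11 encodes beta5t, a catalytic subunit that replaces its standard counterpart in cTEC and makes the thymoproteasome, which is known for its part in the positive selection of CD8 T cells. The medulla holds other epithelial cells, among them Aire-positive cells that express proteins of many peripheral tissues, tuft cells with taste-signalling genes, and keratinising cells.

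Gene counts were 74148029 and 67810047 in the KO libraries (KO 1 and KO 2) and 94959679 and 92178798 in the WT libraries (WT 1 and WT 2). At this depth 3 counts were worth 0.0316 to 0.0442 CPM (counts scaled to the library total, with TMM factors). KO 2 had no reads for 8541 genes, KO 1 for 5757, WT 1 for 6108 and WT 2 for 6938, and reads in no gene made up 30.4% of KO 1 and 19.9% of KO 2, against 22.6% of WT 1 and 20.8% of WT 2. The median gene differed 1.35-fold between the KO libraries and 1.15-fold between the WT libraries, and 4380 genes differed more than 2-fold between the KO libraries against 1931 between the WT libraries. The labelled cell type was checked against its markers by RPKM, which allows for gene length. Prss16, a thymus-specific serine protease of cTEC, stood at 144 and 313 RPKM in KO and 434 and 371 RPKM in WT, and Foxn1, the factor that directs thymic epithelial development, at 33.1 and 48.1 RPKM in KO and 46.9 and 44.4 RPKM in WT. Krt5, a basal keratin that marks medullary cells, was also high in every cTEC library, at 953 and 1180 RPKM in KO and 1080 and 1010 RPKM in WT.

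Psmb11 lies on chromosome 14 (54625310 to 54629556, mm10). Its promoter is shown because cTEC are its main site of expression and because Foxn1, the regulator named above, is known to act on it. In the 250 bases before and 50 after the RefSeq start (chr14:54625060-54625359, plus strand, GRCm38.p6), the letters GACGC or its reverse complement GCGTC, the core that Foxn1 recognises, occurred at -239 and -62, counted from the start at +1 and marked in capitals.
Psmb11: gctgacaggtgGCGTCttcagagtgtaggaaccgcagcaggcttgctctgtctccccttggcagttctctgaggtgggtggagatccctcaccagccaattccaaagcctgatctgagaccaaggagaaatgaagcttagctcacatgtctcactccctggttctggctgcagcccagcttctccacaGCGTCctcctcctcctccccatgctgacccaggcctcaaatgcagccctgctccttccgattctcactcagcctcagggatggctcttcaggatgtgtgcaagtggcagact
At least 1 such match was found on either strand in 27.2% of 32851 promoter windows of this length.

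Psmb11 was nearly absent from the KO libraries. It had 157 reads in KO 1 and 0 reads in KO 2, against 15214 reads in WT 1 and 12756 in WT 2, or 2.04 and 0 CPM in KO against 165 and 141 CPM in WT. The genotypes did not overlap, and the labels hold in all 4 libraries, while the KO libraries differed from each other, since KO 1 held Psmb11 reads and KO 2 held none (up to 3 reads, or 0.0442 CPM, are allowed by a count of 0). The log2 fold change was -7.19 (SE 1.15, adjusted p = 0.0855 by edgeR's quasi-likelihood test on the 4 cTEC libraries, and 0.0326 by voom with a variance for each population). In other fits its adjusted p was 0.0968 by voom with a weight for each library, 0.167 by DESeq2 and 1.12e-04 by edgeR on all 16 libraries.

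Across the 16423 genes tested, 3522 (21.4%) had both KO libraries above both WT libraries and 3960 (24.1%) had both below. A difference of at least 2-fold between the genotype means was present in 1428 of the higher genes (8.70% of genes tested) and in 577 of the lower genes (3.51%). The KO libraries lay within 2-fold of each other, called agreeing from here on, in 913 of the 1428 higher genes (5.56% of genes tested) and in 219 of the 577 lower genes (1.33%). With 2 libraries against 2, an exact two-sided permutation test of a gene cannot go below p = 0.333.

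The higher and the lower genes were unlike in level. The 913 agreeing higher genes had a median of 6.67 CPM in KO and 1.86 CPM in WT, and none was at 0 in either KO library. The 219 agreeing lower genes had a median of 0.0146 CPM in KO and 0.542 CPM in WT, with 114 at 0 in KO 2 and 104 at 0 in KO 1, so agreement there was often that of genes with few or no reads in both KO libraries. Of the 358 lower genes on which the KO libraries disagreed, KO 2 was the lower of the pair in 351, and 200 had no reads in KO 2. Among established genes with at least 5 CPM in the higher genotype, 494 agreed and were higher and 51 agreed and were lower, while 181 higher and 69 lower genes had KO libraries that disagreed.

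**Figure D1:**
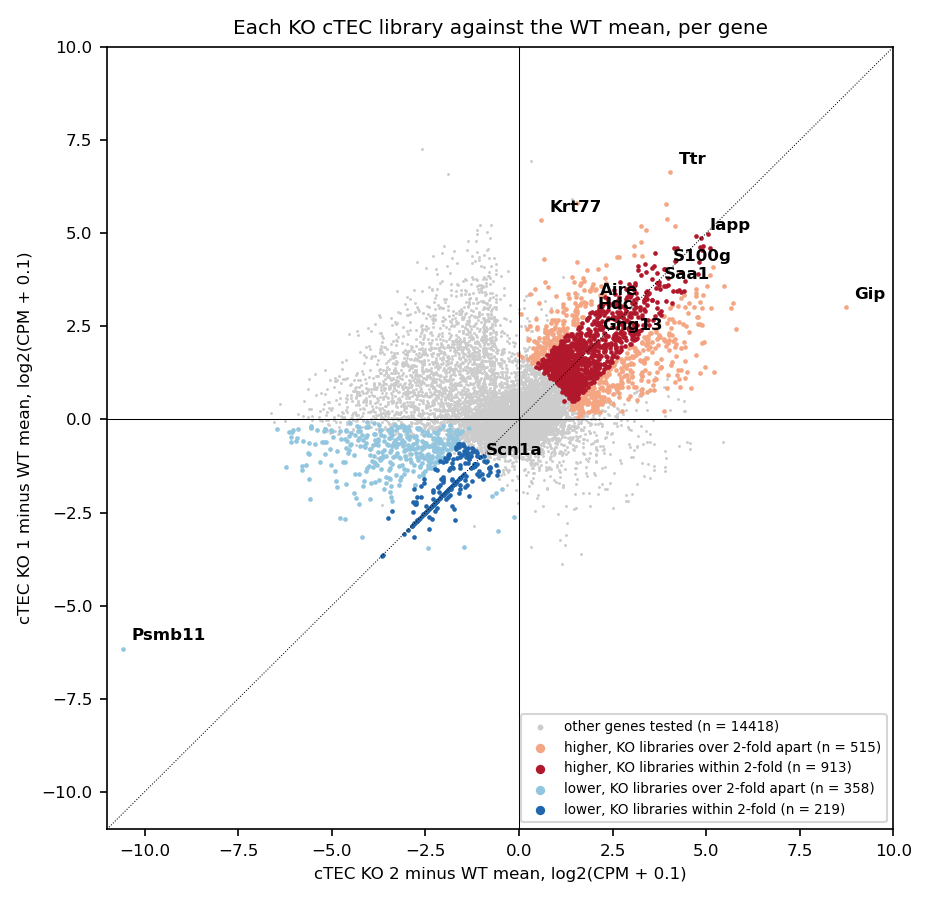
Each point is a gene, plotted by its difference from the WT mean on the log2(CPM + 0.1) scale in cTEC KO 2 (horizontal axis) and cTEC KO 1 (vertical axis). Colours mark genes whose genotypes do not overlap and differ at least 2-fold, split by whether the KO libraries lie within 2-fold of each other: 913 agreeing and 515 disagreeing genes are higher, 219 agreeing and 358 disagreeing genes are lower, and the pale blue lower genes lie further left than down.

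No gene passed an adjusted p of 0.05 in edgeR's fit of the 4 libraries (0% of 16423). The smallest adjusted p was 0.0687, shared by 44 genes, and 2104 genes had an unadjusted p under 0.05, 1079 of them higher (6.57%) and 1025 lower (6.24%). Voom with a variance for each population, fitted to all 16 libraries, called 49 genes higher (0.243% of 20126) and 7 lower (0.0348%). Voom with a weight for each library called 213 higher (1.06%) and 8 lower (0.0397%). DESeq2 on the 4 libraries called 526 higher and 300 lower. All 56 genes called with a variance for each population had genotypes that did not overlap, and the KO libraries agreed in 52. The call and the overlap rest on the same 4 cTEC libraries, so they are not separate evidence. In WT libraries of the other populations, the 49 genes called higher had a median of 55.5 CPM in mTEClo and 226 CPM in mTEChi, beside medians of 56.9 CPM in KO cTEC and 19.6 CPM in WT cTEC on the same scaling. The WT medians of all genes tested were 23.6 CPM in mTEClo and 22 CPM in mTEChi. Those of the 913 agreeing higher genes were 5.43 and 16 CPM.

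Of the 49 genes that voom called higher, 6 chosen after their values were seen are given here. Srgn, a proteoglycan core protein of secretory granules, had 279 and 225 CPM in KO, against 69.8 and 77.9 CPM in WT (adjusted p = 4.80e-04 by voom with a variance for each population), and Syt1, a calcium sensor of vesicle release, had 102 and 74.2 CPM in KO and 26.8 and 21.4 CPM in WT. Cd52, a surface glycoprotein of lymphocytes, had 40.9 and 41.4 CPM in KO and 9.13 and 10.5 CPM in WT. Both KO libraries lay more than 2-fold above both WT libraries in these 3 genes, and the KO libraries agreed. Insm1, a neuroendocrine factor, had 58.3 and 32.9 CPM in KO and 11.5 and 9.38 CPM in WT, Foxj1, the regulator of motile cilia, had 37.3 and 30.4 CPM in KO and 6.74 and 11.8 CPM in WT, and Cdx1, an intestinal homeobox factor, had 38.1 and 20.5 CPM in KO and 4.11 and 5.002 CPM in WT. The 7 genes called lower were Psmb11, Scn1a, Smoc2, Snhg11, Gnai1, Wnt6 and 1700019D03Rik. Smoc2, a secreted matrix protein, had 86.9 and 105 CPM in KO and 208 and 178 CPM in WT, with agreeing KO libraries. Wnt6, a secreted Wnt ligand, had 22.7 and 11.0 CPM in KO and 40.9 and 36.7 CPM in WT, and its KO libraries disagreed.

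The 8 higher genes with the widest gap between the genotypes, among agreeing ones, were Iapp, Ptgir, S100g, Ceacam18, Saa1, Apoa1, Psors1c2 and Rsph4a. Iapp, the islet hormone amylin (chromosome 6, 142298425 to 142303820), had 13.8 and 13.7 CPM in KO, against 0.520 and 0.266 CPM in WT (log2 fold change 5.13, SE 0.61, adjusted p = 0.0687 by edgeR). Both KO libraries were far above both WT libraries and almost level with each other. S100g, an intestinal calcium-binding protein (chromosome X, 162961992 to 162964599), had 14.8 and 13.3 CPM in KO, against 0.823 and 0.797 CPM in WT (log2 fold change 4.12, SE 0.50, adjusted p = 0.0687). It was called by voom with a variance for each population (adjusted p = 0.0210). Saa1, an acute-phase protein of the liver with a near-identical neighbour that makes its read count uncertain, had 15.2 and 16.5 CPM in KO and 1.21 and 1.22 CPM in WT. Apoa1, the main protein of high-density lipoprotein, had 10.1 and 8.71 CPM in KO and 0.812 and 0.0221 CPM in WT. These 4 genes each had tight KO libraries, and the WT libraries of Apoa1 were wide apart.

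Among the remaining higher genes with the widest gaps, Ptgir, the prostacyclin receptor, had 5.71 and 5.98 CPM in KO and 0.238 and 0 CPM in WT. Rsph4a, a radial spoke protein of motile cilia, had 7.69 and 8.75 CPM in KO and 0.758 and 0.797 CPM in WT. Ceacam18 had 5.56 and 4.73 CPM in KO and 0.281 and 0.266 CPM in WT. In Psors1c2 the KO libraries had 9.71 and 9.15 CPM and the WT libraries 0.888 and 0.166 CPM. All 8 had low WT levels, at most 1.22 CPM in a WT library.

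On the lower side the gaps were narrower. Scn1a, a voltage-gated sodium channel (chromosome 2, 66270781 to 66440837), had 124 and 131 CPM in KO, against 281 and 284 CPM in WT, and both pairs were tight (log2 fold change -1.15, SE 0.12, adjusted p = 0.0687 by edgeR and 0.00529 by voom with a variance for each population). Gucy1a2, a subunit of soluble guanylate cyclase, had 100.2 and 62.0 CPM in KO and 218 and 200.2 CPM in WT. Lmbrd2 had 9.90 and 10.0 CPM in KO and 25.1 and 24.4 CPM in WT. Of these lower genes Scn1a and Gucy1a2 had the highest levels, and the KO libraries of Gucy1a2 were further apart than those of Scn1a. Fign, a microtubule-severing protein, had 2.51 and 1.37 CPM in KO and 7.96 and 5.54 CPM in WT, and Carf had 4.08 and 5.69 CPM in KO and 11.4 CPM in each WT library. Ccdc173, Wdr89 and Zfp667 had 1.49 to 3.05 CPM in the KO libraries and 5.55 to 7.06 CPM in the WT libraries.

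**Figure D2:**
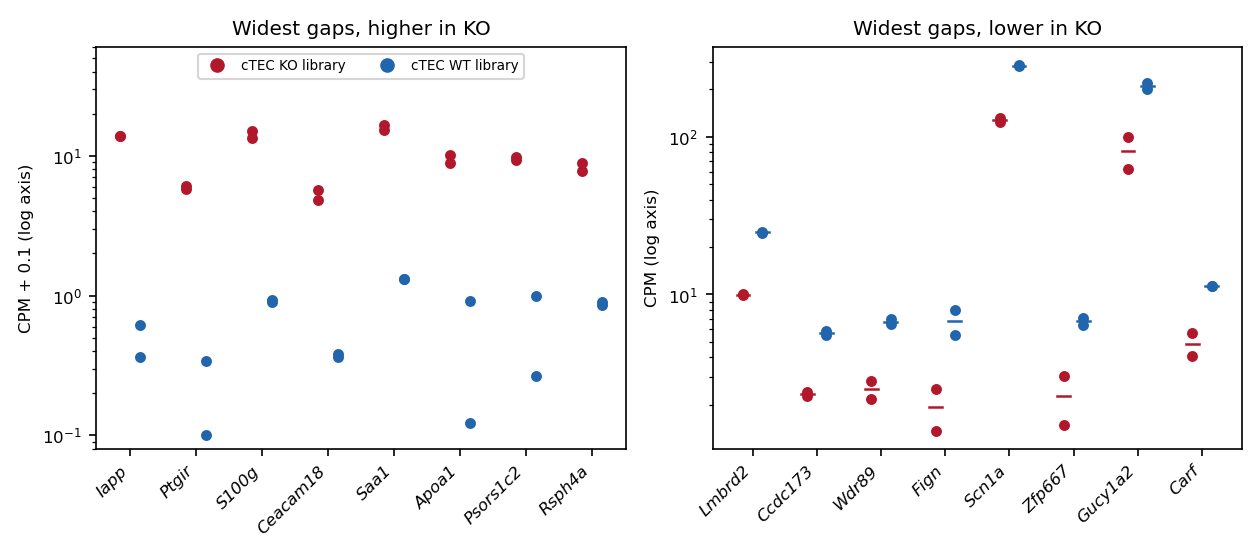
Levels of the 16 named genes with the widest gaps in each library, as CPM + 0.1 for genes higher in KO (left) and as CPM for genes lower in KO (right), both on log axes; each point is a library and a bar on the right is the mean of 2. The gaps on the left are wider than on the right, where Scn1a and Gucy1a2 have the highest levels.

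Where the KO libraries disagreed, the direction of the disagreement differed between genes. Gip, a gut hormone, had 0.793 CPM in KO 1 and 47.2 CPM in KO 2, against 0.0217 and 0 CPM in WT, which is 2 reads in WT 1. Ttr, the liver carrier of thyroid hormone and retinol, had 17.2 CPM in KO 1 and 2.77 CPM in KO 2, against 0.206 and 0 CPM in WT. KO 2 held most of the Gip reads and KO 1 most of the Ttr reads. Nts, the peptide neurotensin, had 11.6 and 3.17 CPM in KO and 0.217 and 0.0443 CPM in WT, and Ly6g6c had 7.13 and 3.43 CPM in KO and 0.0650 and 0.133 CPM in WT. Among lower genes, Ak4, a mitochondrial adenylate kinase, had 4.72 and 0.0584 CPM in KO and 14.7 and 9.25 CPM in WT. Srpx had 2.46 and 0.175 CPM in KO and 6.97 and 9.18 CPM in WT, and Spin2 had 2.39 and 0.0146 CPM in KO and 5.87 and 6.71 CPM in WT. All 3 were lowest in KO 2, as Psmb11 was.

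Tuft cell genes were higher in both KO libraries almost throughout the list. Of 19 members tested, 17 had genotypes that did not overlap and were higher (89.5%, against 21.4% of all genes tested), none was lower, and 15 were at least 2-fold higher with agreeing KO libraries. Members higher than both WT libraries numbered 19 in KO 1 alone and 17 in KO 2 alone, beside 6775 and 6359 of all 16423 genes. The median log2 fold change was 1.46 (0.00719 over all genes tested). Il25, a cytokine of tuft cells, and Tas1r3, a taste receptor subunit, overlapped: Il25 had 11.5 and 0.0730 CPM in KO and 3.67 and 5.38 CPM in WT. No member passed the adjusted threshold in edgeR, and 16 had an unadjusted p under 0.05.

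Of the taste-signalling members, Gng13, a G protein gamma subunit (chromosome 17, 25717172 to 25719102), had 30.0 and 26.9 CPM in KO, against 5.98 and 7.33 CPM in WT (log2 fold change 2.10, SE 0.28, adjusted p = 0.0687 by edgeR). Plcb2, the phospholipase downstream of taste receptors, had 124 and 123 CPM in KO and 46.6 and 37.6 CPM in WT, and Trpm5, the cation channel at the end of that pathway, had 298 and 185 CPM in KO and 95.3 and 80.0 CPM in WT. Each of these had KO libraries above both WT libraries, close together in Plcb2 and wider apart in Trpm5. Chat, which makes acetylcholine, had 16.4 and 14.9 CPM in KO and 5.13 and 4.75 CPM in WT. Among transcription factors, Gfi1b had 8.33 and 8.65 CPM in KO and 2.07 and 1.55 CPM in WT, Hmx2 had 3.83 and 7.24 CPM in KO and 1.14 and 1.37 CPM in WT, and Pou2f3, the master regulator of tuft cells, had 60.3 and 42.5 CPM in KO and 23.2 and 21.3 CPM in WT. In Bmx, a Tec-family kinase, and Rgs13, a regulator of G protein signalling, the KO libraries had 75.7 to 94.5 CPM and the WT libraries 25.7 to 39.8 CPM. Summed over the list, tuft cell genes made up 1700 and 1270 CPM in KO and 641 and 561 CPM in WT. In bulk libraries more cells of a type and more RNA per cell cannot be told apart.

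Medullary markers were also higher in KO, most in KO 1. Of 17 tested, 12 were higher without overlap (70.6%, against 21.4%), 1 was lower and 4 overlapped, and 6 were at least 2-fold higher with agreeing KO libraries. KO 1 alone had 15 members and KO 2 alone 13 members above both WT libraries, and the median log2 fold change was 0.99. The median difference from the WT mean, on the log2(CPM + 0.1) scale, was 1.26 in KO 1 and 0.542 in KO 2. Aire, the factor that drives expression of peripheral-tissue genes (chromosome 10, 78030022 to 78043610), had 104 and 45.9 CPM in KO, against 13.3 and 10.7 CPM in WT (log2 fold change 2.64, SE 0.39, adjusted p = 0.0807 by edgeR). Both KO libraries were above WT, but they differed by 2.26-fold and so disagreed. Hdc, histidine decarboxylase, had 67.7 and 37.4 CPM in KO and 9.62 and 10.5 CPM in WT, and Spib, a factor of mature medullary cells, had 179 and 111 CPM in KO and 45.5 and 45.2 CPM in WT. Both were called higher by voom with a variance for each population (adjusted p = 0.0138 for Hdc and 0.0239 for Spib). Cd80, a costimulatory ligand, had 23.2 and 21.4 CPM in KO and 5.64 and 6.91 CPM in WT.

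The basal markers of the same list differed among themselves. Krt14, a basal keratin, was higher, at 678 and 864 CPM in KO and 591 and 597 CPM in WT, whereas its partner Krt5 overlapped at 2950 and 3250 CPM in KO and 3211 and 2918 CPM in WT. Trp63, a basal epithelial factor, was the lower member, at 635 and 785 CPM in KO and 940 and 993 CPM in WT. Ccl21a, a chemokine with near-identical gene copies, was listed at 0 in all 4 libraries. Ubd, which encodes the ubiquitin-like FAT10, had 350 and 223 CPM in KO and 104 and 95.5 CPM in WT, and Ctss, a lysosomal protease of class II antigen processing, had 51.1 and 58.1 CPM in KO and 21.0 and 22.9 CPM in WT; voom called both (adjusted p = 0.00219 for Ubd and 0.0138 for Ctss).

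Tissue-restricted antigens, the peripheral-tissue genes that the medulla expresses, were higher or overlapped. Of 30 listed, 20 could be tested, 11 were higher without overlap (55% of tested, against 21.4% of all genes), none was lower, and 7 were at least 2-fold higher with agreeing KO libraries (5.56% of all genes). The filter on low counts favours this outcome. Some members, among them Gip and Ttr, had almost no WT reads, passed through KO reads, and could not come out lower. Members low in both genotypes were left out of the share. In KO 1 alone 16 members stood above both WT libraries, in KO 2 alone 11, and 7 were below both in KO 2 alone. Csn2, the milk protein beta-casein, had 88.5 and 54.5 CPM in KO and 8.72 and 11.8 CPM in WT (log2 fold change 2.80, SE 0.31, adjusted p = 0.0687 by edgeR). Resp18, a neuroendocrine secretory protein, had 39.5 and 22.0 CPM in KO and 4.84 and 5.06 CPM in WT, and Apoa4, an intestinal apolipoprotein, had 28.7 and 34.3 CPM in KO and 7.11 and 2.48 CPM in WT. Iapp, Apoa1, Gip and Ttr, given above, belong to the same list. The antigens' median difference from the WT mean, on the log2(CPM + 0.1) scale, was 2.82 in KO 1 and 0.997 in KO 2. That of medullary markers was 1.26 and 0.542. Summed medullary markers did not follow this order, at 5770 and 5880 CPM in KO and 5280 and 5070 CPM in WT. Krt5, which overlapped, made up 2950 and 3250 CPM of the sums in KO. The part of medullary markers in the result was not tested.

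Cornified cell genes, those of keratinising epithelium, were higher without overlap in 10 of 15 tested (66.7%, against 21.4% of all genes) and lower in 1 (6.67%, against 24.1%). KO 1 alone had 14 and KO 2 alone 10 members above both WT libraries. KO libraries agreed at 2-fold or more in 4. Sprr1a, a cornified envelope protein, had 57.6 and 37.5 CPM in KO and 12.3 and 16.7 CPM in WT, and Dsg1a, a desmosomal cadherin with closely related copies, had 66.6 and 39.7 CPM in KO and 17.2 and 20.2 CPM in WT. Voom called both higher (adjusted p = 0.0229 for Sprr1a and 0.0188 for Dsg1a). Krt77 was carried by KO 1, at 17.6 CPM in KO 1 and 0.555 CPM in KO 2, against 0.346 and 0.321 CPM in WT. Krtdap, a keratinocyte differentiation protein, had 39.6 and 51.7 CPM in KO and 12.8 and 22.6 CPM in WT.

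Cortical markers were lower or overlapped. Of 15 tested, 10 were lower without overlap (66.7%, against 24.1% of all genes tested), none was higher, and the median log2 fold change was -0.37. KO 1 alone had all 15 below both WT libraries, and KO 2 alone had 10 below and 2 above, beside 6320 and 7673 of all genes below. The list's median difference from the WT mean, on the log2(CPM + 0.1) scale, was -0.52 in KO 1 and -0.22 in KO 2. Ly75, the endocytic receptor DEC-205 (chromosome 2, 60292103 to 60383273), had 149 and 171 CPM in KO, against 366 and 289 CPM in WT (log2 fold change -1.03, SE 0.16, adjusted p = 0.0855 by edgeR). It was the 1 cortical marker lower by 2-fold with agreeing KO libraries. Kitl, the ligand of Kit on early thymocytes, had 98.6 and 101 CPM in KO and 176 and 190 CPM in WT. Enpep, which encodes the Ly51 antigen used in the sort, had 111 and 104 CPM in KO and 183 and 206 CPM in WT. Cd83, a membrane protein that cTEC need for CD4 T cell selection, had 43.4 and 46.7 CPM in KO and 77.8 and 63.5 CPM in WT. In these genes the KO libraries were close together, whereas Prss16 had 413 and 818 CPM in KO and 1199.5 and 994 CPM in WT. Cxcl12, a chemokine of the cortex, had 566 and 790 CPM in KO and 1051 and 1030 CPM in WT, without overlap. Foxn1 overlapped, at 111 and 144 CPM in KO and 152 and 138 CPM in WT. Summed over the list, cortical markers made up 7220 and 8590 CPM in KO and 10900 and 9920 CPM in WT. Most medullary markers, given above, were higher in the same KO libraries, and their part in the result was not tested. None of the cortical markers was called by edgeR or by either voom fit.

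**Figure D3:**
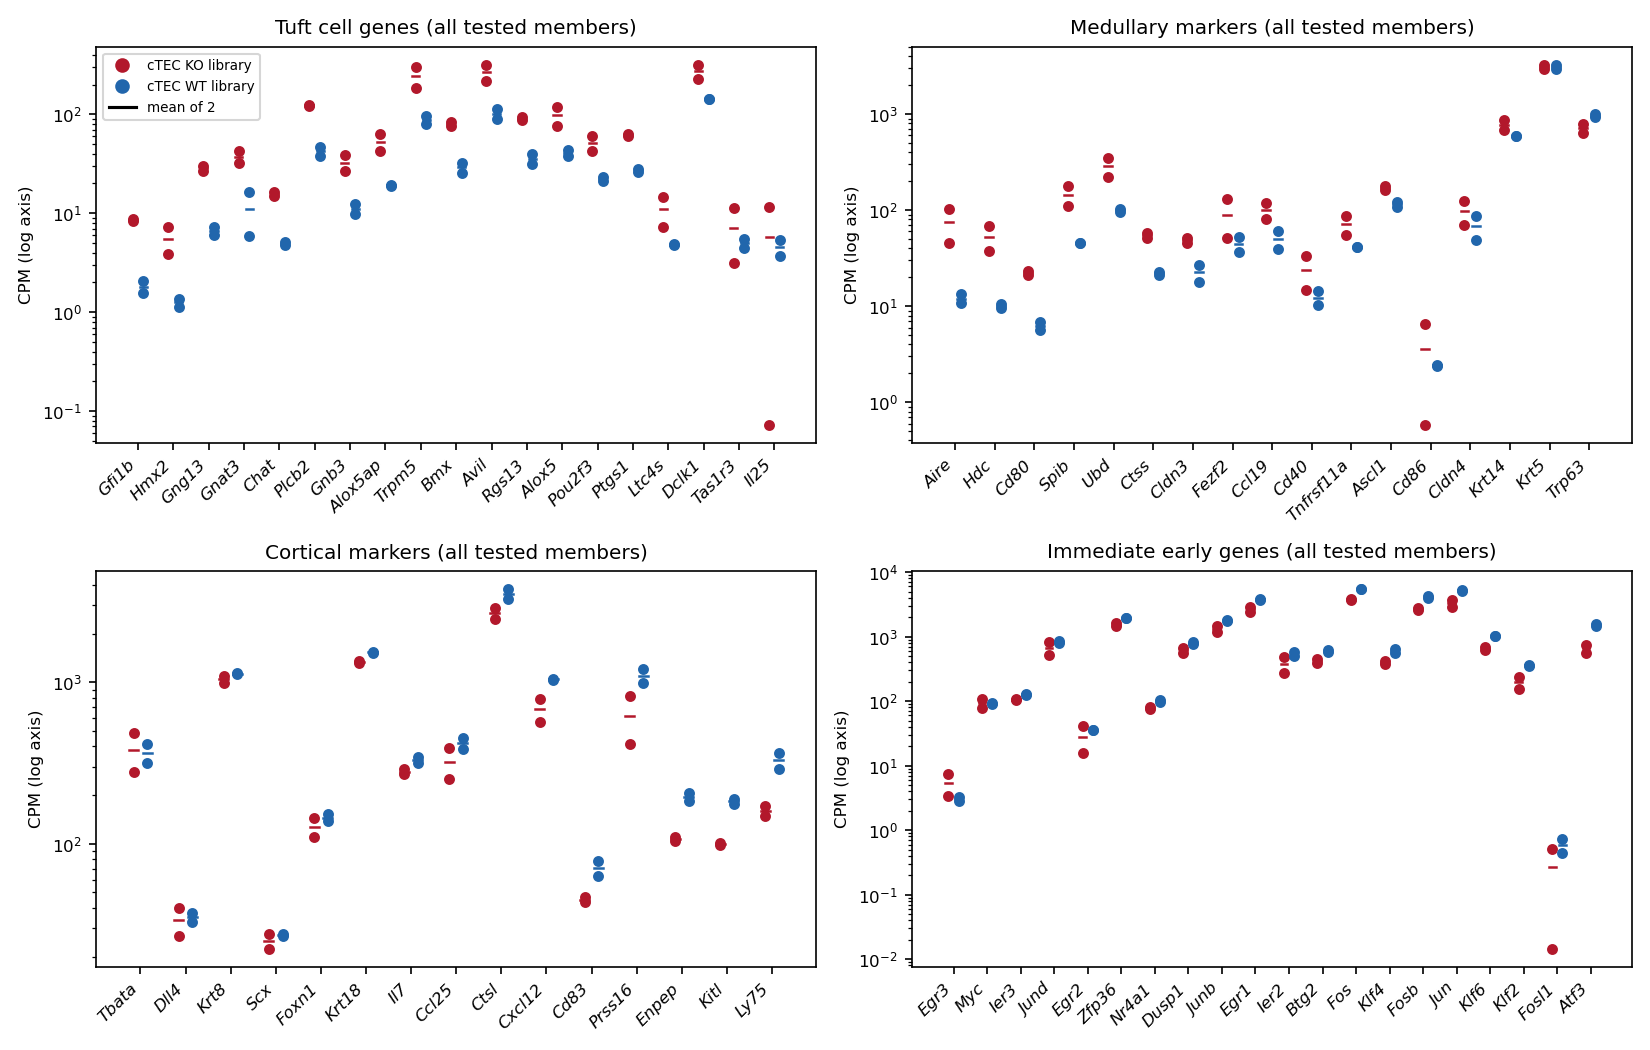
CPM of all tested members of 4 gene lists in each cTEC library (log axes), with members ordered by log2 fold change, KO libraries left of WT libraries for each gene and a bar at the mean of 2. The tuft cell panel has 17 of 19 genes with KO above WT and the medullary panel 12 of 17, while the cortical panel has 10 of 15 and the immediate early panel 15 of 20 with KO below WT.

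Immediate early genes, transcription factors and regulators that cells switch on within minutes of a stimulus, were lower in most of the list. Of 20 tested, 15 were lower without overlap (75%, against 24.1%), 1 was higher and 4 overlapped, and the median log2 fold change was -0.50. KO 1 alone had 16 and KO 2 alone 18 members below both WT libraries. Atf3, a stress-induced factor (chromosome 1, 191170296 to 191183333), had 754 and 564 CPM in KO, against 1574 and 1444 CPM in WT (log2 fold change -1.19, SE 0.17, adjusted p = 0.0731 by edgeR). It was the 1 member lower by 2-fold with agreeing KO libraries. Klf6 and Klf2, zinc finger factors, had 680 and 631 CPM and 239 and 155 CPM in KO, against 1034 and 1042 CPM and 353 and 366 CPM in WT. Fosb and Fos, subunits of AP-1, had 2574 and 2751 CPM and 3783 and 3674 CPM in KO, against 4284 and 3973 CPM and 5492 and 5461 CPM in WT. Egr3 was the higher member, at 7.52 and 3.34 CPM in KO and 3.28 and 2.85 CPM in WT. None was called by edgeR or either voom fit, and DESeq2 gave Atf3 an adjusted p of 1.69e-12.

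The promoter of Atf3 is shown because cyclic AMP response element half-sites are a known entry point for its induction. The letters TGACGT or ACGTCA, in capitals, occurred once in its window (chr1:191183284-191183583, minus strand, GRCm38.p6), at -8.
Atf3: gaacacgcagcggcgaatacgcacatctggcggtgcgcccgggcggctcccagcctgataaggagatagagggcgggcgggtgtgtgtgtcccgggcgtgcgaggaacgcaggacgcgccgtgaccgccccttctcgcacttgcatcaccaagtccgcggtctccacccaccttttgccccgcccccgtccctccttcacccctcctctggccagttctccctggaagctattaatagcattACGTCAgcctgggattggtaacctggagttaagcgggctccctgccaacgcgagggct
The half-site was found in 7.51% of all windows and in 5 of the 15 immediate early genes that had a window. These letters are also part of the full element and do not show binding.

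Heat shock chaperones, which refold damaged proteins, were lower without overlap in 8 of 15 tested (53.3%, against 24.1% of all genes) and higher in none, and the list's median log2 fold change was -0.31. KO 1 alone had 13 members below both WT libraries and KO 2 alone 8. Hspd1, the mitochondrial chaperonin, had 99.2 and 81.8 CPM in KO, against 147 and 163 CPM in WT (log2 fold change -0.78, SE 0.15, adjusted p = 0.132 by edgeR). Hsp90aa1, the inducible HSP90, had 130 and 142 CPM in KO and 226 and 201 CPM in WT. Dnaja1, a co-chaperone of HSP70, had 102 and 112 CPM in KO and 149 and 150 CPM in WT, and Hspe1, the partner of Hspd1 in the chaperonin, had 43.7 and 42.6 CPM in KO and 54.3 and 62.2 CPM in WT. None of the list was 2-fold lower. A promoter window of Hspd1 is shown for its heat shock element. The element was taken as GAA, TTC and GAA with 2 unspecified bases after each of the first 2, or its reverse complement. A pair of overlapping matches at -144 and -139 is in capitals (chr1:55087883-55088182, minus strand, GRCm38.p6). This window lies inside the range of Hspd1 (55077833 to 55088243), so its start is not the gene's outer one.
Hspd1: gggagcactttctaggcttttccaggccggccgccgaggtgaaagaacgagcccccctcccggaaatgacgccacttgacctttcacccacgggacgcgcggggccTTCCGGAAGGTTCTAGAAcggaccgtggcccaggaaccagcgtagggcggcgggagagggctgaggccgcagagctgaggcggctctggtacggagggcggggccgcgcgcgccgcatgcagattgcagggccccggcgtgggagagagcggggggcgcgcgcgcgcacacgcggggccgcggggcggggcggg
The element occurred in 0.603% of all windows and in 3 of the 11 chaperone genes with a window, namely Hspd1, Hspe1 and Hsph1. The ranges of Hspd1 and Hspe1 overlap (Hspe1 lies at 55088148 to 55091317 on chromosome 1). Their windows may therefore hold the same site, and the 3 genes may not be 3 separate occurrences.

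Of 24 interferon response genes, 13 were lower without overlap (54.2%, against 24.1% of all genes) and 5 were higher, a share (20.8%) near that of all genes (21.4%). KO 1 alone had 18 and KO 2 alone 14 members below both WT libraries. Rsad2, the antiviral protein viperin, had 39.1 and 38.3 CPM in KO and 81.9 and 72.7 CPM in WT, while Oasl1, another interferon-induced gene, had 35.9 and 33.4 CPM in KO and 15.1 and 20.6 CPM in WT. Ifi44 and Ifit3 had 242 and 236 CPM and 329 and 302 CPM in KO, against 359 and 347 CPM and 472 and 465 CPM in WT. None passed edgeR's adjusted threshold (adjusted p = 0.0855 for Rsad2).

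None of the other proteasome genes listed had genotypes that were 2-fold apart without overlap. Of 19 genes of the 20S core and its assembly, 6 were lower without overlap (31.6%, against 24.1% of all genes) and none higher. Psma4, a core alpha subunit, had 88.0 and 99.7 CPM in KO and 114 and 115 CPM in WT, and Pomp, the assembly factor, had 81.2 and 53.1 CPM in KO and 92.04 and 96.02 CPM in WT. Among 7 immunoproteasome and activator genes, 5 were higher (71.4%, against 21.4% of all genes) and 1 was lower (14.3%): Psme1, a subunit of the PA28 activator, had 143 and 176 CPM in KO and 115 and 133 CPM in WT, and Psmb9, an inducible catalytic subunit, had 157 and 152 CPM in KO and 162 and 184 CPM in WT. The 19S regulatory particle had 2 higher (11.1%) and 8 lower (44.4%) of 18, with Psmd8 at 97.9 and 112 CPM in KO and 68.6 and 76.6 CPM in WT. The smallest edgeR adjusted p among the proteasome genes named here was 0.243, for Psmd8.

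No member of the MHC class I and class II presentation lists was 2-fold apart without overlap. Ctss, given above, is not in these lists. MHC class II presentation had 7 of 13 members higher without overlap (53.8%, against 21.4% of all genes) and none lower. H2-Oa, a modulator of peptide loading, had 83.9 and 69.3 CPM in KO and 46.5 and 42.0 CPM in WT, and Cd74, the invariant chain, had 7439 and 8378 CPM in KO and 6448 and 7012 CPM in WT. MHC class I presentation had 4 higher (33.3%) and 2 lower (16.7%) of 12. Tapbp, the chaperone tapasin, had 468 and 546 CPM in KO and 377 and 405 CPM in WT. Of 21 thymocyte-directing ligands, 8 were higher (38.1%) and 5 lower (23.8%, against 24.1% of all genes). Ccl20, a chemokine, had 17.3 and 25.9 CPM in KO and 2.77 and 0.199 CPM in WT, and Cxcl10, an interferon-induced chemokine, had 352 and 377 CPM in KO and 652 and 600.0 CPM in WT.

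Further lists had members on both sides, beside 21.4% higher and 24.1% lower among all genes tested. Without overlap, epithelial adhesion genes had 6 higher (27.3%) and 8 lower (36.4%) of 22. Cldn7, a tight junction claudin, was the member at least 2-fold higher with agreeing KO libraries, at 61.3 and 53.3 CPM in KO and 16.6 and 26.2 CPM in WT. Unfolded protein response genes had 3 higher and 3 lower of 19 (15.8% each), NRF2 antioxidant genes 4 and 3 of 20 (20% and 15%), and autophagy genes 2 and 4 of 16 (12.5% and 25%), shares near or below those of all genes. Cell cycle genes had 7 higher and 3 lower of 22 (31.8% and 13.6%), and p53 targets and apoptosis genes 4 and 3 of 16 (25% and 18.8%). Nqo1, an NRF2-driven reductase, had 63.1 and 68.0 CPM in KO and 97.8 and 100 CPM in WT. Cdkn1a, the p53-induced cell cycle inhibitor, had 125 and 99.6 CPM in KO and 75.1 and 70.3 CPM in WT.

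**Figure D4:**
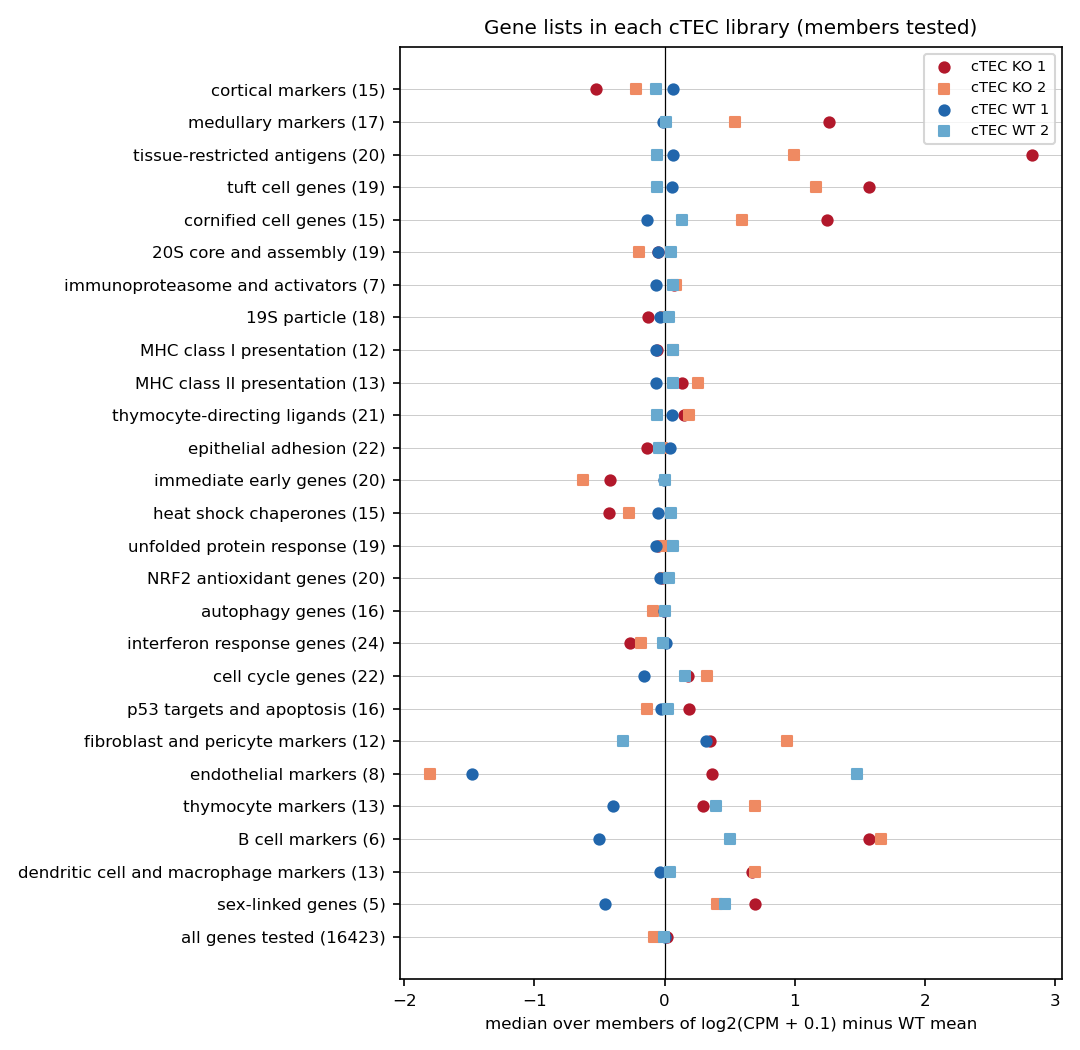
For each gene list with at least 2 tested members (number in brackets), points give the median over members of the difference from the WT mean on the log2(CPM + 0.1) scale in cTEC KO 1, KO 2, WT 1 and WT 2. Both KO libraries lie right of both WT libraries for tuft cell genes, medullary markers, tissue-restricted antigens and cornified cell genes. The same holds for markers of B cells and of dendritic cells and macrophages. It also holds, by smaller distances, for fibroblast and pericyte, MHC class II presentation, immunoproteasome and activator, cell cycle and thymocyte-directing lists. Both KO libraries lie left of both WT libraries for cortical markers, immediate early genes, heat shock chaperones and interferon response genes.

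Some markers of cells outside the gate differed by genotype; the counts that follow stand beside 21.4% higher and 24.1% lower among all genes tested. B cell markers were higher without overlap in 4 of 6 (66.7%), with summed levels of 20.8 and 14.3 CPM in KO and 2.46 and 4.98 CPM in WT, although the defining marker Ms4a1 had 0.286 and 0.365 CPM in KO and 0 and 0.0775 CPM in WT. Dendritic cell and macrophage markers were higher in 4 (30.8%) and lower in 1 (7.69%) of 13, with sums of 154 and 114 CPM in KO and 40.5 and 79.7 CPM in WT. Thymocyte markers were higher in 2 of 13 (15.4%) and summed to 141 and 204 CPM in KO and 107 and 157 CPM in WT. Ptprc, the CD45 used to gate out blood cells, overlapped at 30.1 and 39.7 CPM in KO and 26.1 and 33.8 CPM in WT. Fibroblast and pericyte markers were higher in 6 (50%) and lower in 1 (8.33%) of 12, with sums of 1180 and 1710 CPM in KO and 1410 and 1140 CPM in WT that overlap. All 8 endothelial markers overlapped, with sums of 61.7 and 31.5 CPM in KO and 24.7 and 97.2 CPM in WT. Of 6 erythroid markers only Alas2 could be tested, and it overlapped. Some of these markers were also high in sorted medullary cells. In WT mTEChi, on the scaling of all 16 libraries, Cr2 had 44.1 to 52.0 CPM, Lyz1 237 to 296 CPM and Pdgfrb 62.1 to 63.3 CPM. Col3a1 went the other way, at 25.0 to 29.8 CPM there and 218 and 154 CPM in WT cTEC. Which cells the marker reads came from was not tested. Xist, which is expressed in female cells, had 126 and 682 CPM in KO and 1486 and 690 CPM in WT, and the Y-linked Kdm5d had 36.7 and 28.1 CPM in KO and 17.1 and 25.6 CPM in WT, so every library held RNA of both sexes in proportions that differed. The part of these cells, or of sex, in the results above was not tested.

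Whether the KO effect in cTEC differed from that in the medullary populations was tested in the voom fit of all 16 libraries with a variance for each population. The difference from mTEClo passed the threshold in 75 genes, 71 of them with a greater log2 fold change in cTEC (0.353% of 20126) and 4 with a lower one (0.0199%). The difference from mTEChi passed in 60 genes, 57 greater (0.283%) and 3 lower (0.0149%) in cTEC. With a weight for each library instead, the counts were 273 greater (1.36%) and 12 lower (0.0596%) against mTEClo, and 207 greater (1.03%) and 9 lower (0.0447%) against mTEChi. Both tests use the same 4 cTEC libraries, so they are not separate evidence.

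In Hdc, S100g, Spib, Sprr1a, Dsg1a and Cldn7, KO and WT lay apart in cTEC and close together in the medullary populations. Hdc averaged 54.6 CPM in KO and 10.5 CPM in WT cTEC on the scaling of all 16 libraries. In mTEClo it averaged 14.8 ± 0.51 CPM in KO and 15.2 ± 2.78 CPM in WT, and in mTEChi 904 ± 42.9 CPM in KO and 895 ± 39.4 CPM in WT (SD, n = 3 each). The log2 fold change in cTEC exceeded that in mTEClo by 2.35 (SE 0.41, adjusted p = 0.0177 by voom) and that in mTEChi by 2.31 (SE 0.39, adjusted p = 0.0266). S100g averaged 14.7 CPM in KO and 0.848 CPM in WT cTEC, against 83.0 CPM in both KO and WT mTEChi. Spib, Sprr1a, Dsg1a and Cldn7 were alike in having more in the medullary populations than in WT cTEC and a KO effect that passed the test against both. For Aire the difference did not pass, at 2.57 from mTEClo (SE 0.60, adjusted p = 0.0673 by voom) and 2.67 from mTEChi (SE 0.57, adjusted p = 0.0516).

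**Figure D5:**
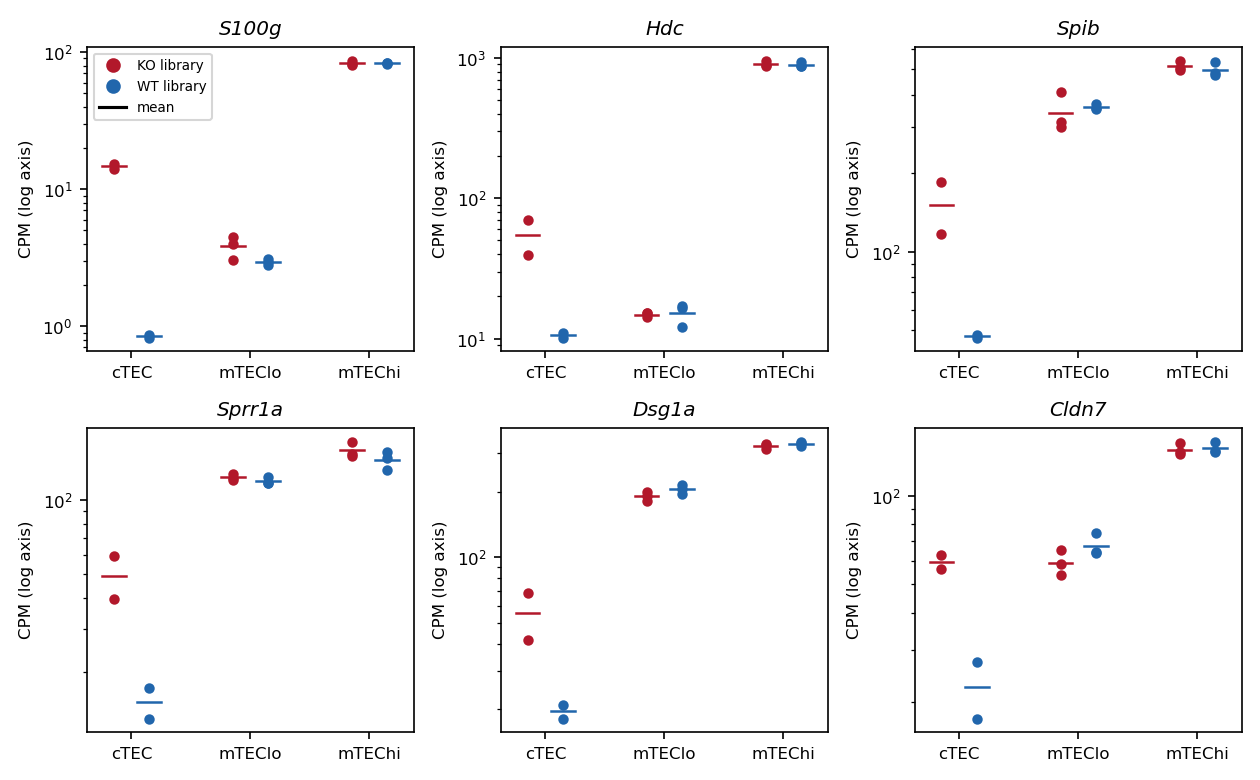
CPM (log axes, scaled over all 16 libraries) of 6 genes named by rule whose KO effect in cTEC differed from that in both medullary populations, with KO libraries left of WT libraries in each population and a bar at the mean. KO and WT lie apart in cTEC and close together in mTEClo and mTEChi.

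Other named genes had other patterns across the populations. Sh2d7, which passed the test against both medullary populations, had 114 to 165 CPM in KO and 181 to 190 CPM in WT mTEClo. Ly75 averaged 167 CPM in KO and 343 CPM in WT cTEC, and 55.5 ± 9.65 CPM in KO and 58.4 ± 3.26 CPM in WT mTEClo (SD, n = 3 each); the test of the difference did not pass (-0.95, SE 0.40, adjusted p = 0.349 by voom). Plcb2, a tuft cell gene, averaged 129 CPM in KO and 44.2 CPM in WT cTEC, but 221 ± 21.4 CPM in KO and 319 ± 22.5 CPM in WT mTEClo, and the difference between these effects was 2.09 (SE 0.40, adjusted p = 0.0270 by voom). Scn1a averaged 133 CPM in KO and 296 CPM in WT cTEC and stood at 6.88 ± 0.74 CPM in KO and 8.53 ± 1.10 CPM in WT mTEClo. Its level was thus higher in cTEC of either genotype than in mTEClo, and the difference of its KO effect from that in mTEClo did not pass (adjusted p = 0.0994 by voom).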

How the data were processed

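The authors deposited read counts per gene symbol (23420 genes, raw and not normalised), from which 5 entries that name no gene were left out, and RPKM values per gene, used here only to set genes' levels beside each other within a library. The submitters' processing notes name HTSeq 0.5.4p1, CASAVA 1.8.2 and the mm10 genome. Per the labels' protocols, libraries came from at least 10 ng of RNA with a TruSeq v2 kit, which does not mark strand, so overlapping antisense genes cannot be told apart. The aligner is not given in the sources used here.

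Counts of the 4 cTEC libraries went into edgeR 4.0.16, run under R 4.3.3 (filterByExpr, TMM, quasi-likelihood F test, Benjamini-Hochberg adjustment, threshold 0.05), because the spread of a fit to all 16 libraries is set mainly by the medullary ones; SE came from the F statistic. The filter ran within these 4 libraries, so a gene could pass through the reads of a single genotype. Differences between populations used voom (limma 3.58.1) with a variance per population. DESeq2 1.42.0, other scalings and filters, leaving out a library, and the replicate number as a block were alternatives. Replicate numbers did not pair the libraries. An interval at 95% or a floor of 3 counts covers counting error only, since reads are not independent molecules.

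The members, the 27 gene lists and the tests were chosen with earlier results of these data known. The rule named Psmb11, then established agreeing genes with at least 5 CPM and a log2 fold change of at least 1, the 8 per direction with the widest gap (nearest KO and WT library, log2 of CPM + 0.1), then 4 disagreeing ones per direction with the largest fold, then up to 4 members of each list. Other genes given were chosen after their values were seen, among them Ubd, Ctss, Srgn, Syt1, Foxj1, Insm1, Cdx1, Smoc2, Wnt6, Plcb2, Trpm5, Pou2f3, Krt14, Bmx, Rgs13, Csn2, Resp18, Apoa4, Prss16, Cxcl12, Foxn1, Fos, Sh2d7 and Cd52, and those named only as exceptions in a list. Promoter windows are from RefSeq (GRCm38.p6), which held 320 of the 431 list genes. Of 11 letter patterns searched, the 3 shown were chosen after their matches were seen. Where a gene shown had several windows, the one with the most matches to its pattern was printed.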

Additional observations from a re-analysis of the deposited data

Results flagged for a closer look

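The differences below are those of named genes whose KO effect in cTEC differed from the KO effect in a medullary population by the test of the difference itself (voom with a variance per population, adjusted p under 0.05). Each value is the log2 fold change of KO over WT in cTEC minus that in the medullary population. Against mTEClo and mTEChi in turn, the difference was 3.74 and 4.11 for S100g, 2.35 and 2.31 for Hdc, 1.71 and 1.58 for Spib, 1.65 and 1.57 for Sprr1a, 1.57 and 1.5 for Dsg1a, and 1.64 and 1.47 for Cldn7. Among genes chosen after their values were seen, it was 1.4 and 1.39 for Ubd, 1.15 and 1.28 for Ctss, 1.52 and 1.73 for Srgn, and 2 and 1.88 for Syt1. It was 1.74 and 1.93 for Foxj1, 2.25 and 2.09 for Insm1, 2.89 and 2.69 for Apoa4, 2.05 and 1.91 for Sh2d7, and 1.88 and 2.10 for Cd52. For Plcb2 the difference passed against mTEClo, at 2.09, and not against mTEChi (1.83, adjusted p = 0.0602 by voom). All of these rest on the same 2 KO and 2 WT cTEC libraries.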

How the results depend on the processing

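The count of called genes depended on the fit. Against 0 in edgeR's fit of the 4 cTEC libraries, 383 genes were called with no filter on low counts, 826 by DESeq2, 4700 by edgeR on all 16 libraries, 221 by voom with a weight per library and 56 by voom with a variance per population; RLE scaling and library totals alone also gave 0. With the replicate number as a block it was 718, although libraries of the same number did not deviate together (correlation -2.55e-05). Leaving out a library gave 167 (without WT 1) to 3501 (without KO 1), with 1083 without KO 2 and 174 without WT 2; the lone library of a group is then assumed to vary like the other group. The cause of these differences was not tested. With 1 library left out, genes without overlap numbered 4739 to 7739 higher (6418 without KO 1) and 5459 to 7785 lower (6306 without KO 2), since fewer libraries overlap less. The 219 agreeing lower genes became 347 with no filter, 395 without WT 1 and 394 without WT 2, and the 913 agreeing higher genes became 608 when the KO libraries had to lie within 1.5-fold. The differences from mTEClo and mTEChi numbered 285 and 216 with a weight per library, against 75 and 60. Of the lists' counts and medians, 31 counts and 9 medians moved without KO 1, 23 and 5 without KO 2, 4 medians without WT 1, 5 without WT 2 and 2 with library totals; without KO 1 the medians of medullary and cortical markers were 0.542 and -0.22, against 0.99 and -0.37. Signs turned as follows: the median of epithelial adhesion genes (-0.07) was 0.00159 with library totals. Alas2 (0.43) was -9.36 to 2.56 with a library left out (-0.40 without WT 2), -2.13 with the block, -1.44 by voom with library weights and -2.08 by voom with population variances. Pecam1 (-0.73) was -1.60 to 1.8 with a library left out (1.8 without WT 2), 0.0913 with the block, 0.109 and 0.101 by those voom fits. The other genes among the 136 followed through these alternatives kept their sign. Genes given only as exceptions or further list members, such as Il25, Krt5, Trp63 and Egr3, were not followed. With 2 libraries per genotype, KO 1 and KO 2 differing more than the WT pair, low genes and small differences could not be resolved.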
